A study of Danio rerio with 15 samples.

Results

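The data are RNA sequencing libraries of venous thrombus tissue taken from zebrafish larvae 6 h after a laser injury, set against venous tissue of uninjured larvae. The members are the libraries whose labels give those conditions, 3 at 6 h and 3 uninjured controls, which makes 6 of the 15 libraries of the series. Every larva, control or injured, carried 2 transgenes, flk1:eGFP and gata1:dsRed, which make endothelium fluoresce green and erythroid cells red. For the 6 h group the laser was aimed at the vein, and the submitters describe the clot at that time as stable; the control larvae had no injury. Both kinds of tissue came from 20 frozen sections of 20 µm each, from which the region was lifted by laser-capture microdissection. The age of the larvae is not stated in the labels. The series has no uninjured larvae sampled at the 6 h mark, and so hour of day and handling cannot be told apart from the injury. The other 9 libraries were taken 1, 3 and 12 h after injury, and they are used here to place the 6 h values in time.

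A larval venous clot of this kind is a mesh of fibrin that holds erythroid cells and thrombocytes, the nucleated fish cells that do the work of mammalian platelets. Injured cells commonly make stress proteins: heat shock proteins hold and refold proteins in the cytosol and the mitochondrion, while chaperones and disulfide isomerases of the endoplasmic reticulum fold proteins on their way to the cell surface or out of the cell.

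The libraries held 12486844 to 14362269 recovered reads at 6 h and 13440164 to 15651535 in the control, and 12309 to 13325 genes were above 0 at 6 h, against 13310 to 13572 in the control. Levels are given as FPKM, a read count scaled to transcript length and library size. At these depths 3 reads of a gene of 2000 bases give 0.104 to 0.12 FPKM at 6 h and 0.0958 to 0.112 FPKM in the control, a limit that covers counting error only. A gene was kept if 3 or more libraries reached 1 FPKM, which left 13051. Skeletal muscle markers were abundant in both groups: TNNT3, a fast troponin subunit, had 10411, 9254 and 9907 FPKM at 6 h and 9512, 9676 and 7999 FPKM in the control. The endothelial markers were low, with kdrl, a receptor for vascular growth factor, at 4.55, 2.27 and 0.769 FPKM at 6 h and 1.3, 1.33 and 7.2 FPKM in the control. The tissue labelled venous thus held far more muscle RNA than endothelial RNA by these markers. Pearson correlations of log2 values ran from 0.836 to 0.848 among the 6 h libraries, from 0.807 to 0.866 among the control libraries, and from 0.771 to 0.849 between the groups.

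The comparison of 6 h with the control asks how the tissue around a stable clot differs from uninjured tissue. By limma, with p-values adjusted by the Benjamini-Hochberg method, 0 of 13051 genes (0%) had an adjusted p under 0.05, and the smallest adjusted p was 0.117. At an unadjusted p under 0.05 there were 721 genes (5.52%), with 335 higher (2.57%) and 386 lower (2.96%) at 6 h. Another 2 counts use the libraries alone: 825 genes (6.32%) had all 3 of the 6 h libraries above all 3 control libraries, and 856 (6.56%) had them all below. If no gene differed, a share of about 0.05 would have an unadjusted p under 0.05. A share of about 0.1 would have separate groups in either direction. The counts lie near these shares. The median log2 difference over all kept genes was -0.016. Nothing in the labels links a library to particular larvae, and 2 libraries could come from the same animal. A p-value here measures the spread among these libraries alone and may be too small. Other fits made a few calls: nr1d4b, a receptor of the REV-ERB family, by voom on the recovered reads, and 13 genes with array quality weights, of which the named genes below are tcap, cbx7a, arpp21, XXYLT1, rorcb, DES, SOCS3, HMOX1, fbxo2 and metrnlb. The genes below are therefore described by their values, and higher or lower says only where the 6 h mean lies. In the lists of genes below, a count of 1 to 3 members at an unadjusted p under 0.05 often moved by 1 or more when a library was left out.

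The 15 genes higher at 6 h with the smallest p and separate libraries fall into those already highest at 3 h, 8 of 15 by group mean, and those highest at 6 h itself, 6 of 15. Among all kept genes 19.2% were highest at 3 h and 14.3% at 6 h, but the 15 were chosen for high 6 h values. The first kind was led by cbx7a, which encodes a chromobox subunit of a polycomb repressor complex. It had 51.7, 21 and 53.3 FPKM at 6 h, against 3.94, 3.06 and 1.95 FPKM in the control (log2 difference 3.35 ± 0.54 SE, limma adjusted p = 0.117). Every 6 h library was above every control library, and every 3 h library, at 115 to 231 FPKM, was higher still.

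The gene tcap encodes telethonin, which caps titin at the edge of the sarcomere. It had 189, 281 and 119 FPKM at 6 h, against 1.99, 16 and 8.94 FPKM in the control (log2 difference 4.55 ± 0.79, limma adjusted p = 0.117). The groups stood far apart, yet the 3 h libraries, at 1511 to 1696 FPKM, were all above those of 6 h, and at 12 h tcap was back to 0 to 11.3 FPKM. The fall from that 6 h level passed the test at 12 h against 6 h (log2 difference -5.38, limma adjusted p = 0.0379).

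SOCS3, an inhibitor that cytokine receptors induce against themselves (2 summed gene IDs), had 47.8, 30.1 and 64.1 FPKM at 6 h, against 7.89, 14.4 and 7.02 FPKM in the control (log2 difference 2.16 ± 0.44, limma adjusted p = 0.184). Its 3 h libraries held 122 to 202 FPKM and its 12 h libraries 4.62 to 10.3 FPKM. HMOX1, the haem oxygenase that breaks haem down, had 17.6, 17.6 and 37.3 FPKM at 6 h, against 1.17, 3.6 and 5.27 FPKM in the control (log2 difference 2.57 ± 0.59, limma adjusted p = 0.327). Neither gene's groups overlapped. HMOX1 was lower at 6 h than at 3 h, where it had 80 to 290 FPKM (log2 difference -2.63, limma adjusted p = 0.0345), and it was lower again at 12 h than at 6 h (-3.29, adjusted p = 0.0433).

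Receptor subunits were among the genes highest at 3 h. il4r.1, a subunit of the interleukin 4 receptor, had 6.45, 8.42 and 8.81 FPKM at 6 h, against 0.191, 0 and 0 FPKM in the control (log2 difference 3.06 ± 0.79). il6st encodes the signalling subunit shared by receptors of the interleukin 6 family, and it had 17.9, 11.2 and 10.9 FPKM at 6 h, against 2.97, 1.53 and 3.08 FPKM in the control (log2 difference 2.02 ± 0.53). Both had separate groups, and both had a limma adjusted p of 0.49. arpp21, a phosphoprotein regulated through cyclic AMP, had 33.7, 21.7 and 13.5 FPKM at 6 h, against 1.16, 0.715 and 0.698 FPKM in the control (log2 difference 3.61 ± 0.63, limma adjusted p = 0.117), and at 12 h it had dropped to 0.0253 to 2.32 FPKM (12 h against 6 h, log2 difference -3.43, adjusted p = 0.0479). The fish chemokine ccl34a.4 had 21, 24.1 and 17.5 FPKM at 6 h, while the control listed it at 0 throughout. By group mean it was highest at 12 h, where its libraries were far apart, at 0, 2.51 and 79.1 FPKM. On the log2 scale of the fit, 12 h lay below 6 h for this gene (log2 difference -1.73, limma adjusted p = 0.616).

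**Figure D1:**
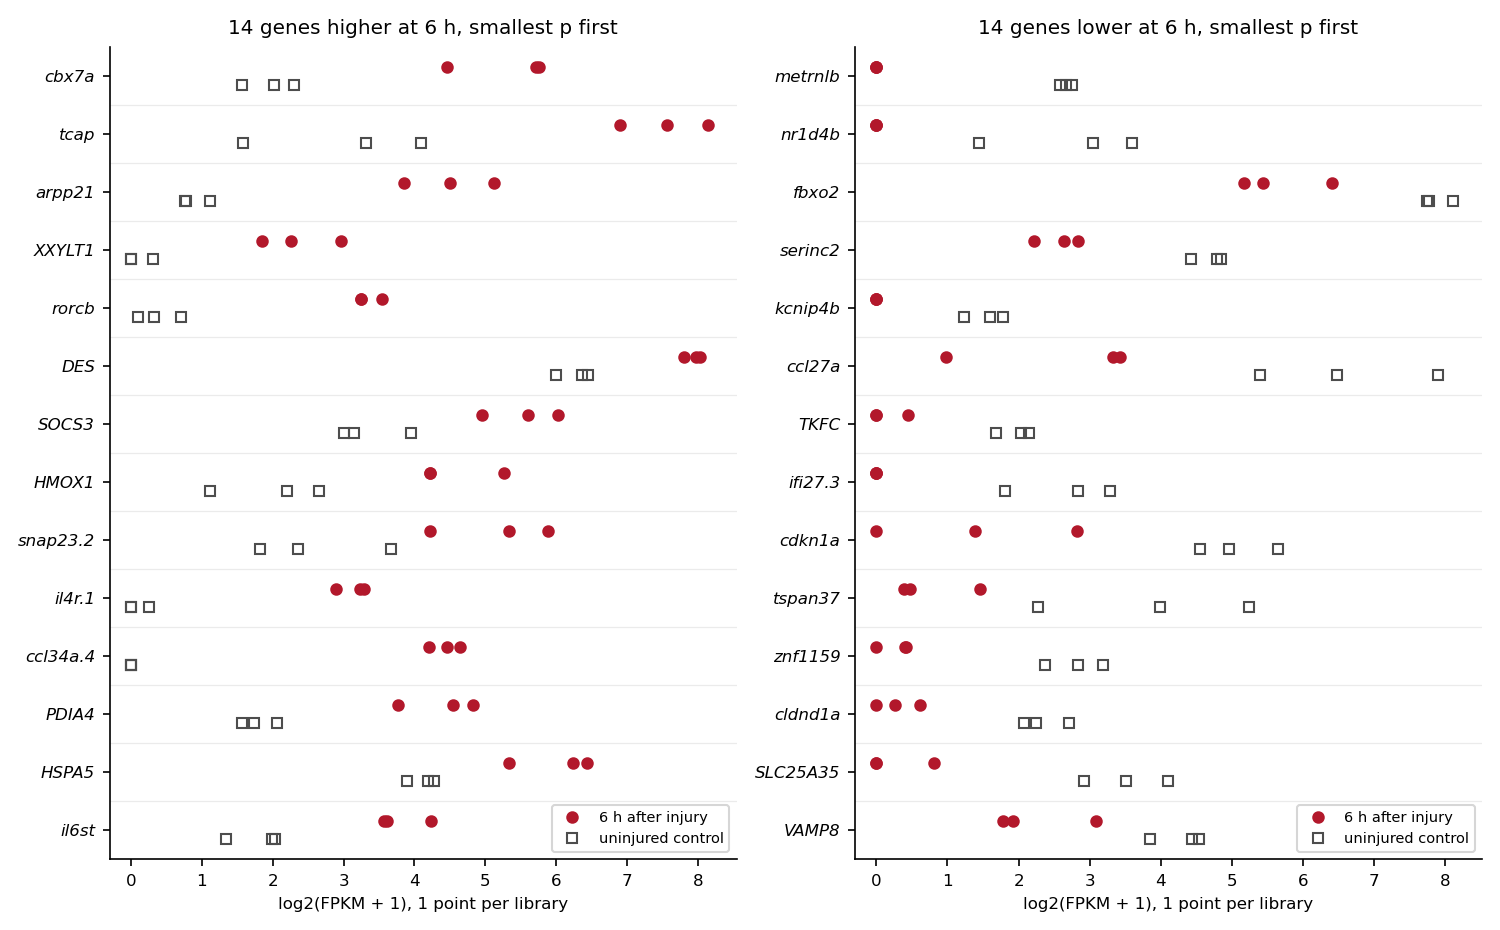
Levels of the 14 genes higher and the 14 genes lower at 6 h with the smallest p among genes with separate libraries; the x axis is log2(FPKM + 1), filled red points are the 6 h libraries and open squares the control libraries. By the rule that chose them no gene's groups overlap; none passed the adjusted threshold, the smallest adjusted p being 0.117.

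The second kind was highest at 6 h. DES encodes desmin, the intermediate filament that ties muscle fibrils together (2 summed IDs), and had 259, 251 and 223 FPKM at 6 h, against 62.7, 81.2 and 86.4 FPKM in the control (log2 difference 1.67 ± 0.34, limma adjusted p = 0.184). The lowest 6 h library was above the highest library of every other time, where DES reached at most 193 FPKM. rorcb, a nuclear receptor of the ROR family that activates the DNA elements REV-ERB receptors repress, had 10.6, 8.47 and 8.47 FPKM at 6 h, against 0.071, 0.636 and 0.249 FPKM in the control (log2 difference 2.97 ± 0.59, limma adjusted p = 0.184). Its 9 libraries at 1, 3 and 12 h all lay under 3 FPKM.

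XXYLT1, a xylosyltransferase that in mammals extends sugars on Notch, had 6.83, 3.79 and 2.59 FPKM at 6 h, against 0.247, 0 and 0 FPKM in the control (log2 difference 2.25 ± 0.45, limma adjusted p = 0.184). It was listed at 0 in every 1 h and 3 h library, and the difference between 6 h and 3 h passed the test (adjusted p = 0.0168 in limma). snap23.2, a plasma membrane SNARE protein for vesicle fusion, had 58, 39.2 and 17.6 FPKM at 6 h, against 11.7, 4.1 and 2.54 FPKM in the control (log2 difference 2.53 ± 0.63, limma adjusted p = 0.49). The remaining pair in this set, PDIA4 and HSPA5, are chaperones and are described with their list.

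Of the 15 genes lower at 6 h, 4 had 0 FPKM in each 6 h library, and all 15 had a higher mean at 12 h than at 6 h. Of all 13051 kept genes, 722 had 0 FPKM in each 6 h library and 8853 had a higher mean at 12 h. The 15 were chosen for low 6 h values, which favours both counts. metrnlb, a secreted relative of meteorin, was listed at 0 in every library at 1, 3 and 6 h, against 5.32, 5.01 and 5.76 FPKM in the control (limma adjusted p = 0.184 for 6 h against control). At 12 h its libraries had 4.57, 1.5 and 0 FPKM. nr1d4b, a receptor of the REV-ERB family that represses transcription, was listed at 0 in every library at 1, 3 and 6 h, against 1.72, 7.28 and 11.1 FPKM in the control (limma adjusted p = 0.184). All of its 12 h libraries were above 0, at 3.87 to 5.75 FPKM. kcnip4b, which binds voltage-gated potassium channels, and ifi27.3, an interferon-inducible gene, were the others at 0. In the control they had 1.34 to 2.44 FPKM and 2.5 to 8.7 FPKM.

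Among abundant genes, fbxo2, an F-box protein that recognises sugar-bearing glycoproteins for degradation, had 35.1, 42.1 and 83.9 FPKM at 6 h, against 213, 275 and 218 FPKM in the control (log2 difference -2.20 ± 0.46, limma adjusted p = 0.196). serinc2, a membrane protein named for incorporating serine into lipids, had 3.67, 6.12 and 5.21 FPKM at 6 h, against 20.5, 27.8 and 26.7 FPKM in the control (log2 difference -2.13 ± 0.47, limma adjusted p = 0.308). Neither gene's groups overlapped, and both rose between 6 and 12 h, by log2 differences of 2.61 for fbxo2 and 2.90 for serinc2 (limma adjusted p = 0.0433 and 0.0382). cdkn1a, the inhibitor of cyclin-dependent kinases known as p21, had 0, 6.09 and 1.62 FPKM at 6 h, against 30.1, 49 and 22.5 FPKM in the control (log2 difference -3.65 ± 0.88, limma adjusted p = 0.395). ccl27a, whose mammalian relative is a chemokine of the skin, had 9.04, 9.72 and 0.965 FPKM at 6 h, against 238, 88 and 40.9 FPKM in the control (log2 difference -4.01 ± 0.93, limma adjusted p = 0.35). VAMP8, a SNARE protein of endosomes that also serves granule release in mammalian platelets, had 2.42, 7.5 and 2.79 FPKM at 6 h, against 20.7, 13.4 and 22.2 FPKM in the control. The other 6 were TKFC, tspan37, znf1159, cldnd1a, SLC25A35 and inka1a, all under 2 FPKM in every 6 h library and between 2.21 and 36.8 FPKM in the control.

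Chaperones of the endoplasmic reticulum lay mostly above the control. Of 36 matched members 32 were kept; 11 were higher at an unadjusted p under 0.05, or 34.4% beside 2.57% of all genes, and 0 were lower. The median log2 difference was 0.94, and 15 members had separate groups with 6 h higher, where 6.32% of all genes did, and 0 had 6 h lower, where 6.56% did. Since the filter keeps a gene that is high in 3 libraries, these counts describe the kept members only. The members' summed level was 673, 730 and 578 FPKM at 6 h, against 326, 453 and 329 FPKM in the control. In bulk tissue such a difference in RNA per cell cannot be told apart from a different number of cells that express the genes.

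HSPA5, the main chaperone of the compartment, also called BiP, had 74.4, 85.6 and 39.3 FPKM at 6 h, against 18.4, 17.2 and 13.9 FPKM in the control (log2 difference 1.88 ± 0.49, limma adjusted p = 0.49). HYOU1, which exchanges the nucleotide of BiP, had 18.6, 12 and 6.53 FPKM at 6 h, against 0.48, 3.61 and 0.488 FPKM in the control (log2 difference 2.52 ± 0.70, limma adjusted p = 0.495). Both had every 6 h library above every control library. DNAJB11, a J-domain partner of BiP, had 16.8, 6.05 and 8.25 FPKM at 6 h and overlapped its control values of 0.0572, 6.54 and 1.36 FPKM. MANF, a secreted protein retained in the compartment, had 3.96, 6.74 and 3.91 FPKM at 6 h, against 1.24, 0.624 and 0 FPKM in the control (log2 difference 1.90 ± 0.56, limma adjusted p = 0.543).

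PDIA4, a disulfide isomerase, had 27.4, 22.3 and 12.6 FPKM at 6 h, against 1.97, 2.32 and 3.19 FPKM in the control (log2 difference 2.59 ± 0.68, limma adjusted p = 0.49). Its groups were separate, and its 3 h libraries, at 0.129, 2.79 and 1.21 FPKM, were as low as the control, so that 6 h exceeded 3 h by a log2 difference of 3.30 (limma adjusted p = 0.0236). calr3b, a calreticulin that holds glycoproteins, had 27.4, 20.5 and 17.7 FPKM at 6 h, against 2.77, 7.42 and 6.81 FPKM in the control (log2 difference 1.84 ± 0.53, limma adjusted p = 0.511), and it rose at 6 h relative to 3 h (2.46, adjusted p = 0.0308). SDF2L1, a partner of the BiP chaperone complex, had 14.9, 14.4 and 6.49 FPKM at 6 h, against 3.12, 0.127 and 1.72 FPKM in the control (log2 difference 2.39 ± 0.69, limma adjusted p = 0.511). At 3 h SDF2L1 had at most 0.247 FPKM, and it rose at 6 h relative to 3 h (log2 difference 3.46, limma adjusted p = 0.0212). SERPINH1, the collagen chaperone (2 summed IDs), had 27.4, 25.4 and 29.4 FPKM at 6 h, against 8.53, 3.98 and 1.39 FPKM in the control (log2 difference 2.55 ± 0.79, limma adjusted p = 0.649).

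Set against 3 h, 3 of the 32 chaperones passed the threshold higher at 6 h, where 67 of all genes (0.513%) did, and 0 passed lower, where 78 (0.598%) did. The comparison with 3 h uses the same 6 h libraries as the comparison with the control. By group mean, 18 of 32 members (56.2%) were at their highest at 6 h, beside 14.3% of all kept genes, and 10 were at their highest at 12 h. The chaperones' summed level was 747, 463 and 842 FPKM at 12 h, which overlaps the 673, 730 and 578 FPKM at 6 h. Between 12 h and 6 h 0 of the 32 passed the adjusted threshold in either direction. Of all 13051 genes only 8 passed higher and 5 lower at 12 h, so this count says little about the chaperones. Not every member was higher at 6 h: FKBP10, an isomerase for collagen, had 0.737, 11.8 and 2.83 FPKM at 6 h, against 9.85, 13.4 and 13.4 FPKM in the control. The list of sensors and effectors of the response to unfolded proteins had 0 of 27 kept members higher and 0 lower at an unadjusted p under 0.05. Of all genes 2.57% were higher and 2.96% lower, so a list of this size would hold few such members in any case. Groups were separate with 6 h higher in 4 of the 27, where 6.32% of all genes had that, and with 6 h lower in 3, where 6.56% did. XBP1, a transcription factor of that response, had 115, 136 and 75.2 FPKM at 6 h and 56.4, 94.8 and 83.9 FPKM in the control, which overlap, and DDIT3, a factor linked to cell death under stress, had 12.5, 18.9 and 16.9 FPKM at 6 h and 36.7, 22.1 and 29.4 FPKM in the control, with 6 h below. These levels count all transcripts of XBP1 and do not separate its spliced form. In the list for transport through the secretory pathway, 2 of 51 kept members were higher (3.92%, beside 2.57% of all genes) and 0 lower. Without control replicate A the count higher was 0. The 2 higher members were LMAN1, a cargo receptor, and OSTC, a subunit of the complex that attaches sugars. LMAN1 had 4.92, 7.85 and 3.37 FPKM at 6 h, against 0.31, 0.763 and 2.58 FPKM in the control. OSTC had 156, 131 and 114 FPKM at 6 h, against 34, 88.2 and 50.5 FPKM in the control. In this transport list 39 of 51 differences were positive, beside 47.9% of all genes, with a median log2 difference of 0.34. Groups were separate with 6 h higher in 10 of the 51, where 6.32% of all genes had that. They were separate with 6 h lower in 2, where 6.56% did. The summed level of the transport list was 1489, 1573 and 1457 FPKM at 6 h, against 1036, 1422 and 1184 FPKM in the control.

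**Figure D2:**
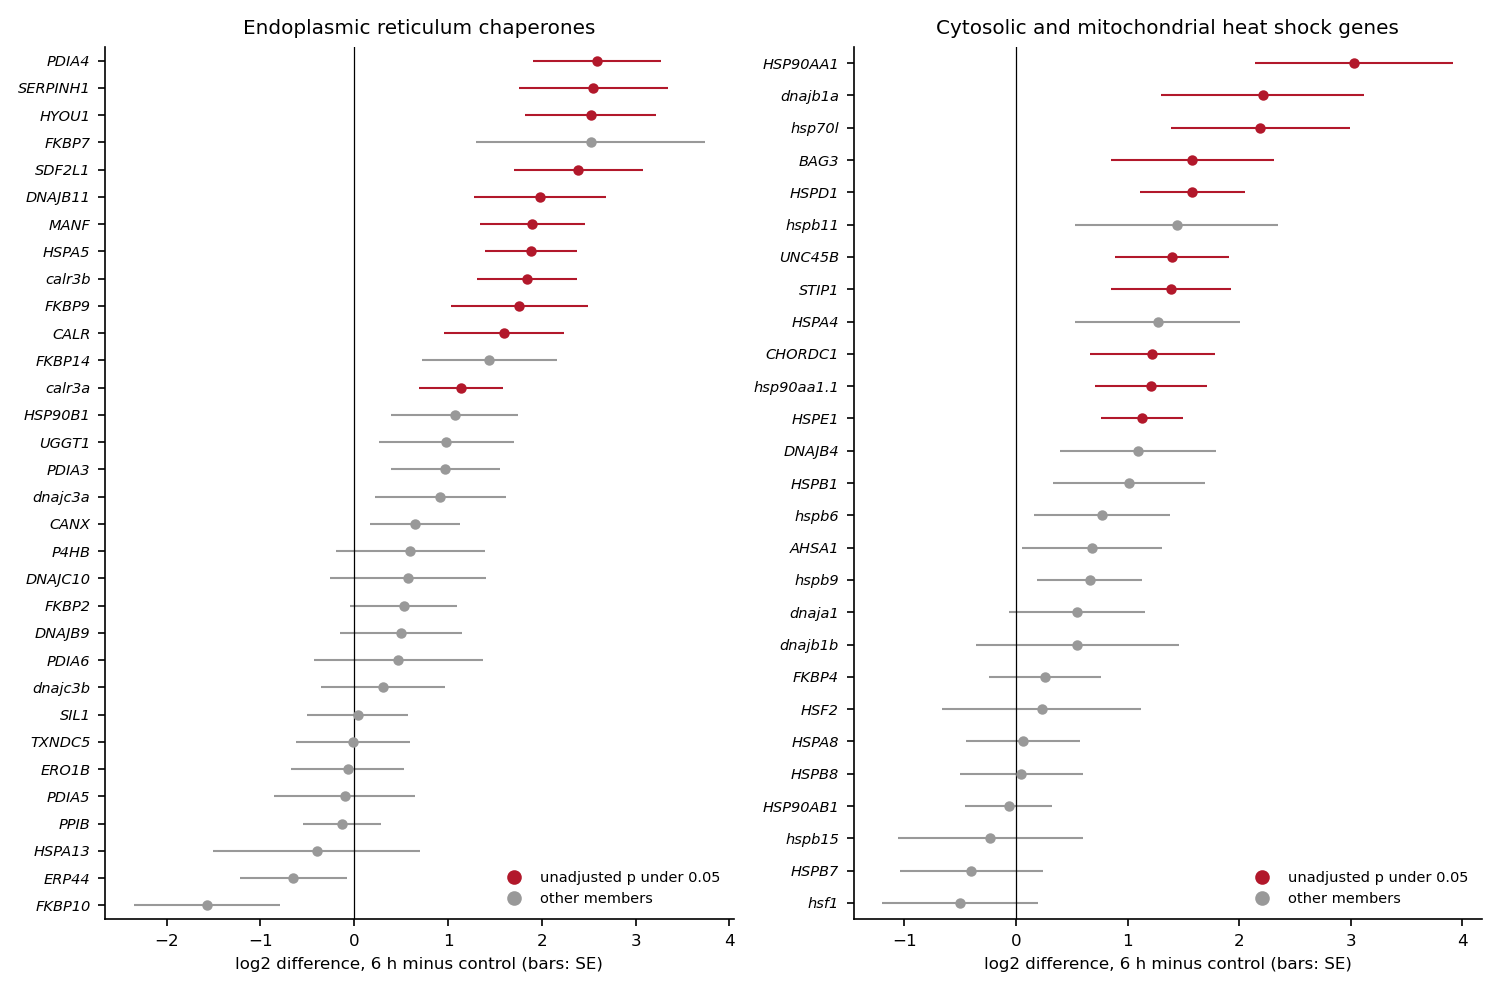
Log2 difference between 6 h and control for each kept member of the endoplasmic reticulum chaperone list (32 members) and the heat shock list (27 of 29 members, without hsp70.1 and hsp70.3, which the control lists at 0), with standard errors; red marks an unadjusted p under 0.05. Most points lie right of 0 in both panels; 25 of the 32 chaperones have a positive difference.

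Heat shock genes of the cytosol and mitochondrion had 12 of 29 kept members higher at an unadjusted p under 0.05 (41.4%, beside 2.57% of all genes) and 0 lower, with a median log2 difference of 1.09. That count was 4 without 6 h replicate A, 5 without control replicate C, 6 without 6 h replicate C and 6 without control replicate A. The inducible forms led by size. HSP90AA1, a cytosolic chaperone of kinases and receptors, had 26.8, 19.5 and 37.2 FPKM at 6 h, against 1.21, 3.9 and 2.7 FPKM in the control (log2 difference 3.03 ± 0.89, limma adjusted p = 0.541). The inducible hsp70.1 had 1.64, 0.56 and 6.59 FPKM at 6 h and hsp70.3 had 5.5, 0.0961 and 14.7 FPKM, and the control listed both at 0 in its 3 libraries. Library B was the lowest of the 6 h libraries for both, and for hsp70l, with 7.89, 0.525 and 14.7 FPKM at 6 h, it lay within the control range of 0 to 1.17 FPKM.

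The mitochondrial chaperonin was higher as well. HSPD1, its large subunit, had 70.2, 46.8 and 47.8 FPKM at 6 h, against 11.9, 26.9 and 16.1 FPKM in the control (log2 difference 1.58 ± 0.47, limma adjusted p = 0.543). HSPE1, its lid, had 212, 186 and 132 FPKM at 6 h, against 68, 121 and 59.5 FPKM in the control (log2 difference 1.13 ± 0.37, limma adjusted p = 0.747). The groups were separate for both. UNC45B, which folds myosin with the muscle form of HSP90, had 25.6, 24.5 and 9.58 FPKM at 6 h, against 4.81, 10.9 and 4.59 FPKM in the control, with 1 library of 6 h inside the control range. STIP1, the adaptor between the HSP70 and HSP90 systems, had 35.4, 38.9 and 23.9 FPKM at 6 h, against 10.6, 20.2 and 7.13 FPKM in the control (log2 difference 1.39 ± 0.54, limma adjusted p = 0.853). Against 3 h the list had no common direction (median 0.012), and its called member was the small heat shock gene hspb9, which fell at 6 h to 6.91, 10.4 and 4.18 FPKM, against 125, 77 and 115 FPKM at 3 h (log2 difference -3.75, limma adjusted p = 0.00137).

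**Figure D3:**
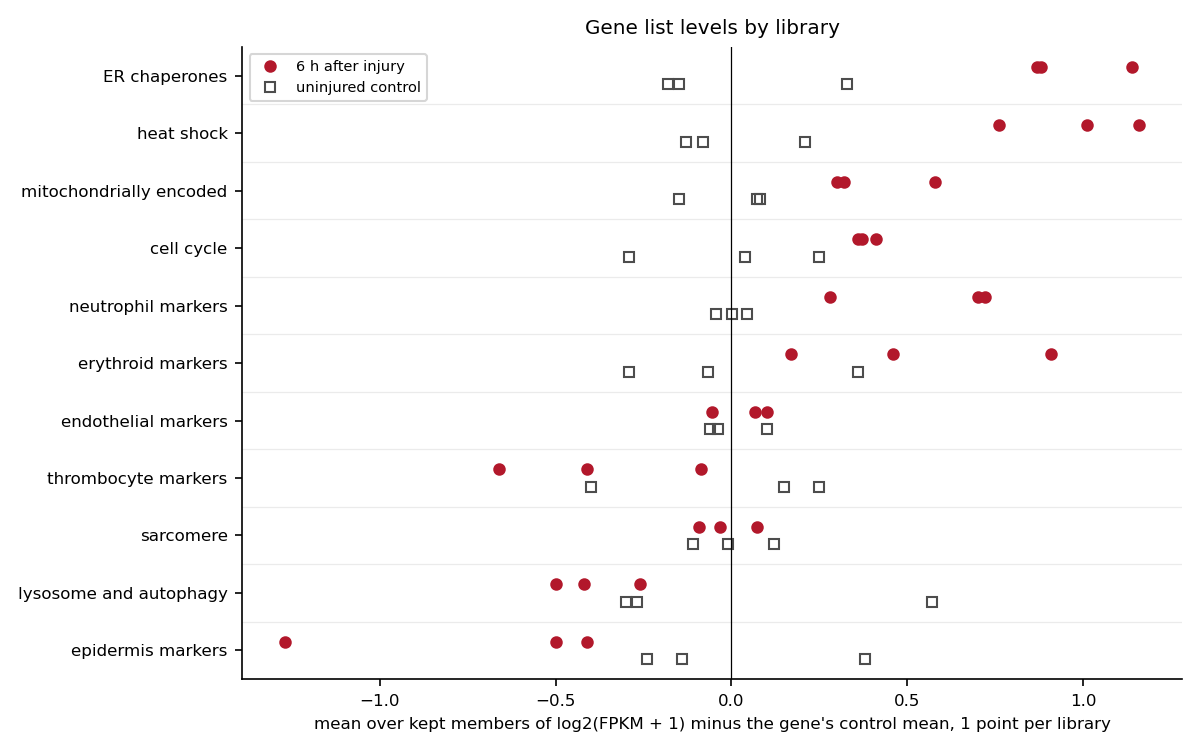
Mean level of the kept members of 11 gene lists in each library, as log2(FPKM + 1) minus each gene's control mean; filled red points are the 6 h libraries and open squares the control libraries. The 6 h points lie right of all control points for the chaperones of the endoplasmic reticulum (0.88, 1.14 and 0.87, against -0.15, 0.33 and -0.18) and for heat shock genes (1.16, 0.76 and 1.01, against -0.13, 0.21 and -0.08). They also lie right of all control points for mitochondrially encoded, cell cycle and neutrophil genes, and left of them for epidermis markers. Endothelial, sarcomere, erythroid, thrombocyte and lysosome points overlap.

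Markers of other cell types were measured beside these lists. Epidermis markers lay mostly below the control: 5 of 43 kept members (11.6%, beside 2.96% of all genes) at an unadjusted p under 0.05, 0 higher, and 11 with separate groups and 6 h below, where 6.56% of all genes had that. Their summed level was 972, 2226 and 3177 FPKM at 6 h, against 5267, 5004 and 6956 FPKM in the control, and the mean relative level was lowest in library A (-1.27, against -0.41 in B and -0.50 in C). The count lower was 1 without 6 h replicate A, 2 without control replicate C and 8 without 6 h replicate C. cldnb, a claudin of epithelial tight junctions, had 2.1, 15 and 6.41 FPKM at 6 h, against 70, 82.3 and 158 FPKM in the control (log2 difference -3.77 ± 1.00, limma adjusted p = 0.49). It stood at 374 to 1214 FPKM at 3 h, so that it fell at 6 h relative to 3 h (log2 difference -6.37, limma adjusted p = 0.00641). The keratin krt4 had 16.1, 116 and 177 FPKM at 6 h, against 425, 409 and 468 FPKM in the control, and icn2, which binds calcium in epidermis, had 258, 648 and 1364 FPKM at 6 h, against 2052, 2352 and 2369 FPKM in the control. epcam, an epithelial adhesion molecule, was listed at 0 in all 6 h libraries and at 0.054 to 0.325 FPKM in the control. Those control levels rest on a few reads. Not every marker was lower: 12 of the 43 kept members had a positive difference. TP63 had 2.73, 3.01 and 0.293 FPKM at 6 h and 1.58, 0.994 and 3.45 FPKM in the control, which overlap. The part of the lower epidermis level in ccl27a, fbxo2 and the other lower genes was not tested.

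The levels of blood and vessel markers overlapped between the groups. Among 34 kept endothelial markers 1 was higher at an unadjusted p under 0.05 (2.94%, beside 2.57% of all genes) and 0 lower. Their summed levels were 120, 103 and 139 FPKM at 6 h and 129, 129 and 130 FPKM in the control. Thrombocyte markers had 0 of 11 kept members at an unadjusted p under 0.05, and they summed to 22, 30.4 and 34.1 FPKM at 6 h and 45.1, 38.9 and 27.4 FPKM in the control. Of the 11 differences 3 were positive, beside 47.9% of all genes, and the median log2 difference was -0.36. The defining thrombocyte markers were low and uneven between libraries. itga2b, the fibrinogen receptor subunit, had 0, 0.583 and 1.45 FPKM at 6 h and 0.262, 0.051 and 0 FPKM in the control. The receptor mpl had 0, 0 and 1.5 FPKM at 6 h and 0, 0.558 and 0 FPKM in the control, and GP1BB, a subunit of the receptor for von Willebrand factor, had 0.613, 0 and 3.88 FPKM at 6 h and 0.0839, 0.408 and 0 FPKM in the control. Library C had the highest 6 h level of each of these. F13A1, another defining marker, was listed at 0 in all 6 h libraries and had 0, 0 and 0.147 FPKM in the control. Erythroid markers had 21 of 25 positive differences, beside 47.9% of all genes, and 0 of 25 at an unadjusted p under 0.05. Their summed level, nearly all of it globin, was 6184, 3498 and 11684 FPKM at 6 h and 2803, 5024 and 3643 FPKM in the control, with overlapping groups.

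Neutrophil markers had 2 of 17 kept members higher at an unadjusted p under 0.05 (11.8%, beside 2.57% of all genes), and these were the proteases MMP9 and mmp13a, which epithelial cells near wounds can make as well. Of the 17 differences 12 were positive, beside 47.9% of all genes. Groups were separate with 6 h higher in 5, where 6.32% of all genes had that, and with 6 h lower in 1, where 6.56% did. lyz, the lysozyme that defines the cells, had 0.398, 0.501 and 0.693 FPKM at 6 h and 0.218, 0.212 and 0 FPKM in the control, separate but all low. The whole list summed to 248, 327 and 286 FPKM at 6 h and 219, 302 and 182 FPKM in the control. These sums overlapped, while the mean relative level of the list was above every control library in each 6 h library, and its part in the protease and chemokine values was not tested. Macrophage markers had 13 of 18 positive differences, beside 47.9% of all genes. Of the 18, 5 had separate groups with 6 h higher, where 6.32% of all genes did, and 0 had 6 h lower, where 6.56% did. Their mean relative level was 0.49, 0.25 and 0.46 at 6 h, against 0.039, 0.023 and -0.062 in the control, with every 6 h library higher. At an unadjusted p under 0.05 there were 0 higher and 1 lower (5.56%, beside 2.96% of all genes), the lysosomal protease LGMN. LGMN had 13.6, 18.9 and 14.8 FPKM at 6 h and 31.5, 16.7 and 224 FPKM in the control, which overlap. Without 6 h replicate A, B or C the count lower was 0, and without control replicate A the count higher was 2. The list summed to 170, 189 and 142 FPKM at 6 h and 97.6, 165 and 364 FPKM in the control. MPEG1, a pore-forming protein, had 0.0304, 0 and 0.317 FPKM at 6 h and 0.0499, 0.534 and 0.254 FPKM in the control, and MFAP4, a matrix glycoprotein used as a macrophage marker in fish, had 45.6, 11.6 and 23.8 FPKM at 6 h and 13.8, 3.06 and 12.4 FPKM in the control, which overlap. The neuronal marker ELAVL3 was listed at 0 in all 6 h libraries, and SNAP25 and GFAP had at most 0.185 FPKM there. In the control ELAVL3 had 0, 0.214 and 4.11 FPKM, SNAP25 had 0, 0.026 and 7.88 FPKM, and GFAP had at most 0.028 FPKM. Other neural markers were present: STMN1 (2 summed IDs, of which the marker stmn1b is 1) had 16.5, 17.8 and 16.2 FPKM at 6 h, against 12.4, 15 and 2.91 FPKM in the control. mbpa had 6.94, 40.1 and 9.19 FPKM at 6 h, against 22.6, 31 and 10.3 FPKM. The neural list summed to 69.8, 193 and 118 FPKM at 6 h and 143, 145 and 133 FPKM in the control, which overlap. No symbol was matched for mpx, hbbe1.1 or mylpfa.

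**Figure D4:**
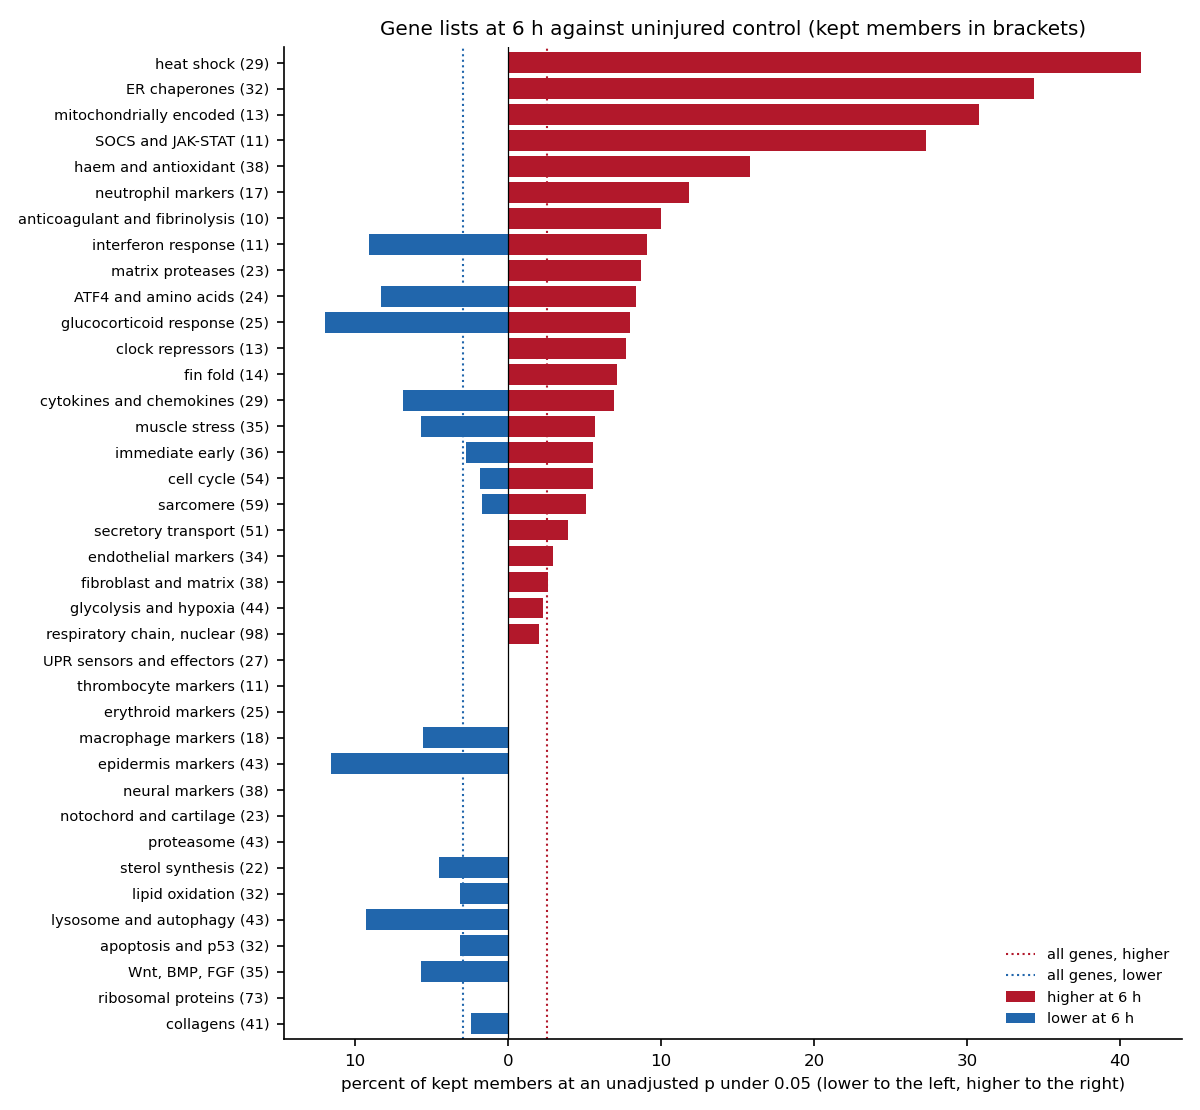
Share of the kept members of each gene list with at least 10 kept members that lay at an unadjusted p under 0.05 at 6 h, higher to the right in red and lower to the left in blue, in percent. Dotted lines mark the shares of all genes, 2.57% higher and 2.96% lower; heat shock genes (41.4%) and chaperones of the endoplasmic reticulum (34.4%) reach farthest on the higher side.

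Clock genes were examined because rorcb and nr1d4b stood near the top. Cells keep daily time through activators, the repressors they induce, and the ROR and REV-ERB receptors that drive or repress the activators. Of 6 kept receptors of that last kind, 1 was higher and 2 were lower at an unadjusted p under 0.05, beside 2.57% and 2.96% of all genes. The higher one was rorcb and 1 of the lower ones was nr1d4b, the genes that prompted the look. NR1D2, a REV-ERB receptor, had 0.106, 0.997 and 0.202 FPKM at 6 h, against 0.936, 4.54 and 7.38 FPKM in the control (log2 difference -1.69 ± 0.76, limma adjusted p = 0.892), so library B of 6 h reached the lowest control. At 3 h it had 10.3 to 21.6 FPKM, from which 6 h had fallen (log2 difference -3.43, limma adjusted p = 0.0335). nfil3-5, a repressor that binds the clock's D-box elements, had 11.6, 6.28 and 10.8 FPKM at 6 h, against 0.455, 1.43 and 2.03 FPKM in the control (log2 difference 2.22 ± 0.59, limma adjusted p = 0.49). HLF, an activator at the same elements, was listed at 0 in all 6 h libraries, against 1.96, 4.61 and 2.22 FPKM in the control.

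The clock's own repressors gave 1 of 13 kept members higher (7.69%, beside 2.57% of all genes) and 0 lower, beside 2.96%. Of the 13 differences 3 were positive, beside 47.9% of all genes, with a median log2 difference of -0.17. Groups were separate with 6 h higher in 3, where 6.32% of all genes had that, and with 6 h lower in 3, where 6.56% did. BHLHE40, which competes with the activators, had 2.68, 6.46 and 0.472 FPKM at 6 h, against 0, 0 and 0.0265 FPKM in the control (log2 difference 1.77 ± 0.63, limma adjusted p = 0.813). The 3 h libraries held 19.6 to 28.7 FPKM, and 6 h was lower than 3 h (log2 difference -2.82, limma adjusted p = 0.0341). PER2, a period gene that light induces in fish, had 3.16, 2.2 and 3.73 FPKM at 6 h and 1.05, 1.33 and 1.54 FPKM in the control, with separate groups (log2 difference 0.79 ± 0.64, limma adjusted p = 0.99). ciarta, another member, had 1.95, 0.0574 and 2.67 FPKM at 6 h, against 6.79, 4.83 and 4.83 FPKM in the control. Its groups were separate with 6 h lower (log2 difference -1.51 ± 0.91, limma adjusted p = 0.982). The activators CLOCK and BMAL1 overlapped between the groups. Without tissue from uninjured larvae at the matching hour, the time of sampling and the injury cannot be told apart for any of these genes.

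Immediate early genes, which transcription switches on within minutes of a signal, had 2 of 36 kept members higher at 6 h (5.56%, beside 2.57% of all genes) and 1 lower (2.78%, beside 2.96%). FOSL2, an AP-1 subunit that outlasts FOS, had 13, 5.97 and 10.7 FPKM at 6 h, against 1.41, 1.67 and 4.05 FPKM in the control (log2 difference 1.71 ± 0.53, limma adjusted p = 0.646). fosl1b, of the same family, had 2.59, 5.86 and 0.45 FPKM at 6 h and 0 in each control library. FOS itself had 0.0942, 0.133 and 0.369 FPKM at 6 h, against 0, 3.68 and 0.481 FPKM in the control, and it fell relative to 3 h, where it had 32.9 to 37.6 FPKM (log2 difference -4.93, limma adjusted p = 0.00913). Against 3 h, 7 of the 36 passed lower and 0 higher, beside 0.598% and 0.513% of all genes. They included ATF3, a stress-induced repressor (log2 difference -4.82), FOSL1 (-3.99) and DUSP1, a phosphatase that shuts off MAP kinases (-3.95). DUSP1 lay below the control as well, with 2.13, 4.81 and 0.988 FPKM at 6 h, against 7.82, 8.46 and 14.4 FPKM in the control (log2 difference -1.72 ± 0.71, limma adjusted p = 0.854).

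Genes of glucocorticoid signalling, the stress hormone pathway, were mixed at an unadjusted p under 0.05. Of 25 kept members 2 were higher (8%, beside 2.57% of all genes) and 3 lower (12%, beside 2.96%). The count lower was 6 without control replicate A and 1 without control replicate B. Beside DUSP1, the lower ones were PDK4, a kinase that diverts pyruvate from oxidation, and HSD11B2, the enzyme that inactivates cortisol. PDK4 had 2.39, 4.08 and 7.92 FPKM at 6 h, against 9.05, 23.1 and 16.3 FPKM in the control (log2 difference -1.59 ± 0.61, limma adjusted p = 0.853). The higher ones, SOCS3 and FOSL2, are also targets of cytokine and AP-1 signalling. Over the whole list 6 of 25 differences were positive, beside 47.9% of all genes, with a median log2 difference of -0.61. The list's mean levels overlapped between the groups. By group mean 22 of the 25 (88%) were highest at 3 h, beside 19.2% of all kept genes.

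Cytokines and chemokines had 29 of 55 matched members kept, with 2 higher (6.9%, beside 2.57% of all genes) and 2 lower (6.9%, beside 2.96%). cxcl8b.1, a chemokine that draws neutrophils, had 37.9, 25.9 and 8.58 FPKM at 6 h, against 0, 0 and 6.25 FPKM in the control (log2 difference 3.48 ± 1.02, limma adjusted p = 0.541). ccl25b, whose mammalian relative guides lymphocytes to thymus and gut, had 3.61, 26.4 and 11.1 FPKM at 6 h, against 24, 38.1 and 37.4 FPKM in the control, with library B inside the control range. il1b, an early inflammatory cytokine, had 0.191, 0 and 0.125 FPKM at 6 h and was listed at 0 in the control. lepb, a leptin that fish induce in wounds, had 6.8, 0 and 0 FPKM at 6 h and 0 FPKM in the control, and it fell relative to 3 h, where it had 108 to 346 FPKM (log2 difference -6.69, limma adjusted p = 0.00596). In the list of JAK-STAT signalling and its inhibitors, 3 of 11 were higher (27.3%, beside 2.57% of all genes), among them SOCS3 and il4r.1, while 5 of 11 differences were positive, the median log2 difference was -0.48 and the list's mean levels overlapped between the groups.

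Haem and antioxidant genes, which handle haem, iron and oxidants, had 6 of 38 kept members higher (15.8%, beside 2.57% of all genes) and 0 lower. The list as a whole lay near the control, with 21 of 38 positive differences, a median of 0.073 and mean levels that overlapped between the groups. Beside HMOX1 they included fthl28, a ferritin chain that stores iron, with 77.5, 81.2 and 103 FPKM at 6 h, against 5.1, 0.144 and 11.8 FPKM in the control (log2 difference 4.29 ± 1.19, limma adjusted p = 0.495). Its 3 libraries at 6 h lay close together, while those at 3 h ran from 31 to 272 FPKM. prdx1, a peroxidase that removes hydrogen peroxide, had 17.6, 12.3 and 28.9 FPKM at 6 h, against 0.79, 7.76 and 5.18 FPKM in the control (log2 difference 2.09 ± 0.60, limma adjusted p = 0.511). txnb, a thioredoxin, had 87.5, 48.4 and 43.1 FPKM at 6 h, against 7.64, 6.28 and 39.3 FPKM in the control (log2 difference 2.08 ± 0.73, limma adjusted p = 0.813). The groups of both were separate, for txnb by a small gap. Ferritin and thioredoxin genes come in near-identical copies that can share reads. Erythroid cells are rich in haem, and the part of the erythroid levels given above in these values was not tested.

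Proteases that cut the matrix had 2 of 23 higher (8.7%, beside 2.57% of all genes) and 0 lower; without 6 h replicate A the count was 1 and without control replicate B it was 4. mmp13a, a collagenase, had 9.07, 15 and 9.82 FPKM at 6 h, against 1.01, 0.189 and 0.219 FPKM in the control (log2 difference 3.08 ± 0.86, limma adjusted p = 0.495). MMP9, a gelatinase, had 9.17, 1.84 and 3.97 FPKM at 6 h, against 0, 0.413 and 0 FPKM in the control (log2 difference 2.22 ± 0.80, limma adjusted p = 0.813). At 3 h MMP9 had 46.5 to 113 FPKM, so it fell at 6 h relative to 3 h (log2 difference -3.90, limma adjusted p = 0.0236). FN1, fibronectin, a matrix protein that is also built into clots (2 summed IDs), had 12.7, 37.2 and 12.7 FPKM at 6 h, against 1.79, 1.9 and 3.34 FPKM in the control (log2 difference 2.56 ± 1.00, limma adjusted p = 0.853). The list of fibroblast and matrix genes had 1 of 38 kept members higher (2.63%, beside 2.57% of all genes) and 0 lower. Its median log2 difference was 0.02. Groups were separate with 6 h higher in 5, where 6.32% of all genes had that, and with 6 h lower in 1, where 6.56% did.

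Coagulation genes, most of them made in the liver, had 8 of 20 matched members kept. Of these 1 was higher (12.5%, beside 2.57% of all genes) and 1 lower (12.5%, beside 2.96%). f5, a cofactor for making thrombin, had 1.93, 1.34 and 0.768 FPKM at 6 h, against 0.0102, 0.278 and 0 FPKM in the control (log2 difference 1.08 ± 0.45, limma adjusted p = 0.854). F10, the protease that f5 assists, was listed at 0 in all 6 h libraries, against 5.51, 7.64 and 0.409 FPKM in the control. f3b, a tissue factor that starts coagulation, had 14.3, 3.4 and 2.62 FPKM at 6 h and 2.72, 0.897 and 1.21 FPKM in the control, which overlap. SERPINE2, an inhibitor of thrombin, had 7.21, 4.83 and 12.1 FPKM at 6 h, against 12.4, 26.8 and 16.2 FPKM in the control (log2 difference -1.12 ± 0.56, limma adjusted p = 0.926).

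Muscle genes formed the most abundant RNA of both groups. The sarcomere list summed to 222525 to 244980 FPKM at 6 h and 202823 to 266945 FPKM in the control. It had 3 of 59 kept members higher (5.08%, beside 2.57% of all genes) and 1 lower (1.69%, beside 2.96%). Beside DES and UNC45B the third was tnnt2c, a cardiac-type troponin T, with 8.77, 4.43 and 8.06 FPKM at 6 h, against 0.206, 0.268 and 3.78 FPKM in the control (log2 difference 2.01 ± 0.73, limma adjusted p = 0.813). NEB, nebulin, which sets the length of thin filaments, was the lower member, with 0.458, 0.654 and 5.87 FPKM at 6 h, against 12.6, 7.08 and 7.27 FPKM in the control. The muscle stress list had 2 of 35 kept members higher (5.71%, beside 2.57% of all genes) and 2 lower (5.71%, beside 2.96%). Its median log2 difference was 0.068. The higher ones were tcap and CHRNG, the fetal subunit of the acetylcholine receptor. The lower ones were asb2b and trim55a, which mark proteins for degradation. The count lower was 0 without 6 h replicate A, control replicate A or control replicate C. CHRNG had 2.89, 1.44 and 6.57 FPKM at 6 h, against 0.0261, 1.32 and 0 FPKM in the control. nmrk2, a kinase that makes a precursor of NAD, overlapped the control, with 56.7, 34.7 and 19.8 FPKM at 6 h and 13.3, 56.6 and 26.7 FPKM in the control.

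Mitochondrially encoded mRNAs had 12 of 13 positive differences, beside 47.9% of all genes, with 4 higher at an unadjusted p under 0.05 (30.8%, beside 2.57%) and a median log2 difference of 0.42. That count was 1 without control replicate A and 2 without 6 h replicate B. MT-ND6, a subunit of complex I read from the opposite strand to the rest, had 1347, 1228 and 1003 FPKM at 6 h, against 574, 661 and 844 FPKM in the control (log2 difference 0.79 ± 0.27, limma adjusted p = 0.813). MT-ND2, MT-ATP6 and MT-ND1 also had separate groups, with log2 differences of 0.75, 0.61 and 0.61. All 13 were at their highest at 1 h by group mean. Nuclear genes of the respiratory chain had 2 of 98 higher (2.04%, beside 2.57% of all genes) and 0 lower. The count higher was 7 without 6 h replicate C and 0 without 6 h replicate B or control replicate C.

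Cell cycle genes, which drive DNA copying and mitosis, were set against both the control and 3 h. Against the control, 3 of 54 kept members were higher (5.56%, beside 2.57% of all genes) and 1 lower (1.85%, beside 2.96%), with a median of 0.48. Of the 54 differences 40 were positive, beside 47.9% of all genes. Groups were separate with 6 h higher in 12, where 6.32% of all genes had that, and with 6 h lower in 2, where 6.56% did. The list's mean relative level was 0.37, 0.36 and 0.41 at 6 h, against 0.038, 0.25 and -0.29 in the control. nuf2, a kinetochore component, had 2.91, 4.19 and 6.89 FPKM at 6 h, against 1.17, 0 and 0.569 FPKM in the control (log2 difference 1.85 ± 0.61, limma adjusted p = 0.766). Against 3 h, 9 of 54 rose and 0 fell, beside 0.513% and 0.598% of all genes. A higher mean at 6 h than at 3 h was found in 53 of 54 members, and in 6612 of 13051 genes. The smallest p belonged to KPNA2, an importer of nuclear proteins, with 40.8, 31.5 and 45.3 FPKM at 6 h, against 0, 0.867 and 0 FPKM at 3 h (log2 difference 5.01 ± 0.51, limma adjusted p = 0.000276). In the control KPNA2 had 45.4, 28.1 and 29 FPKM, a range that the 6 h libraries overlap. hmgb2b, a chromatin protein of dividing cells, had 289, 223 and 246 FPKM at 6 h, against 43.5, 41 and 30.9 FPKM at 3 h and 201, 252 and 201 FPKM in the control (6 h against 3 h, limma adjusted p = 0.000953). CCNB1, a mitotic cyclin, had 7.37, 11.7 and 7.14 FPKM at 6 h, against at most 0.163 FPKM at 3 h and 8.57, 19.6 and 10.6 FPKM in the control. The others that rose were AURKB, BUB3, MAD2L1, TOP2A, UBE2C and pclaf, by log2 differences of 2.81 to 4.39.

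**Figure D5:**
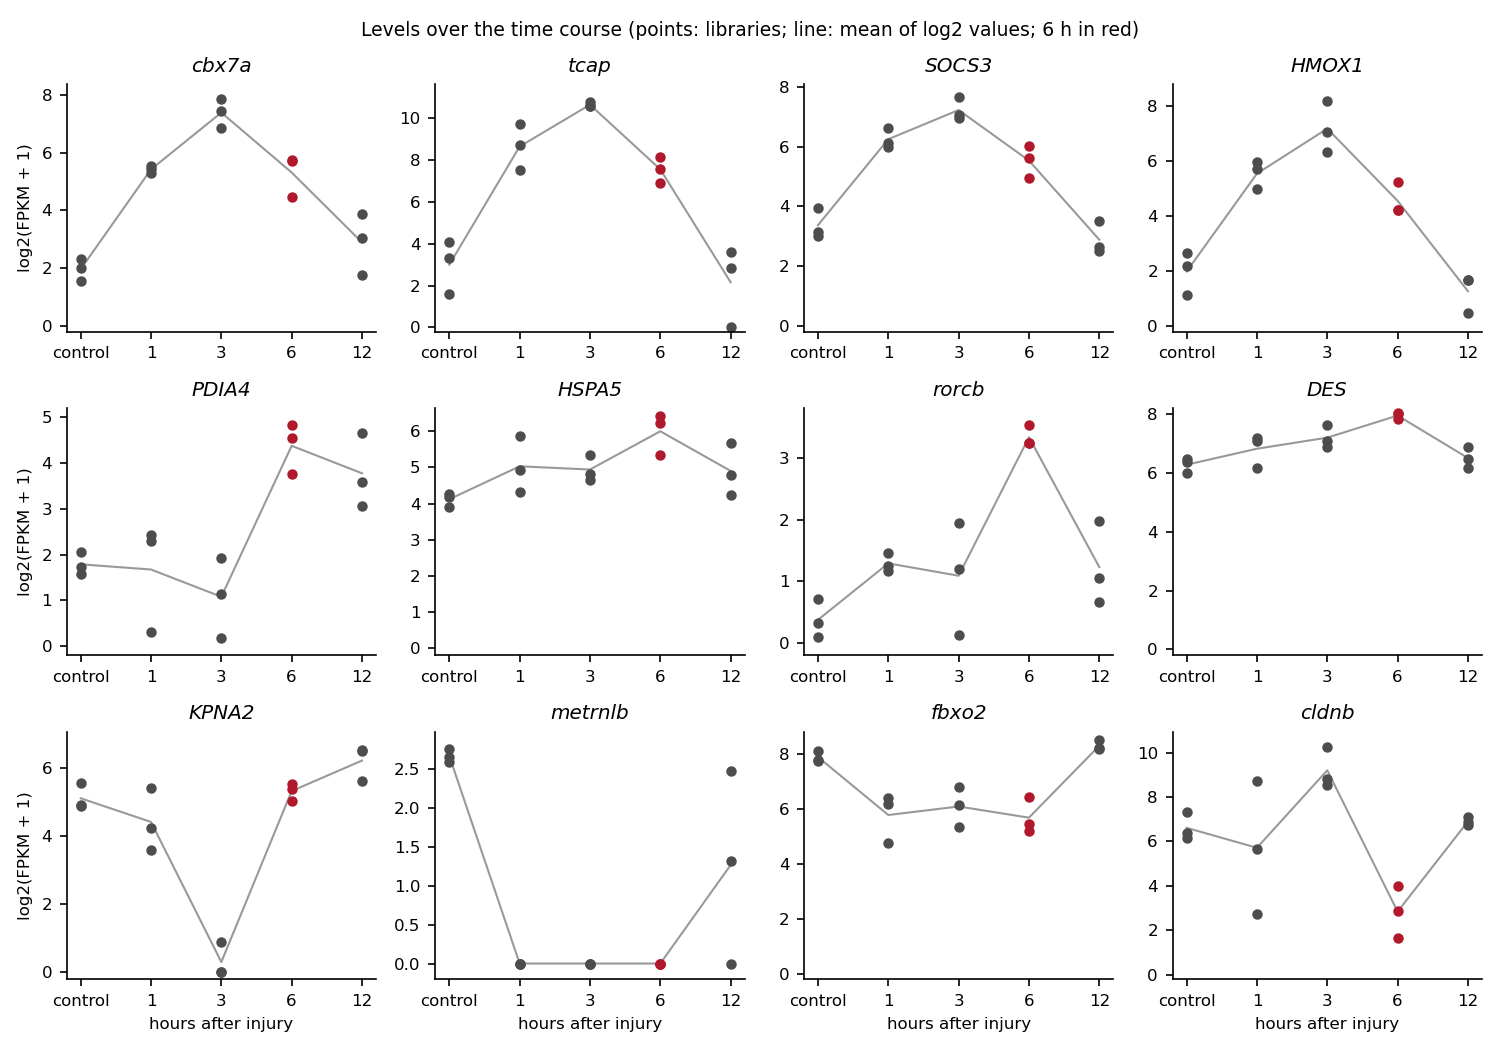
Levels of 12 genes as log2(FPKM + 1) in the control and 1, 3, 6 and 12 h after injury; points are libraries, with 6 h in red, and lines join the group means. cbx7a, tcap, SOCS3 and HMOX1 are highest at 3 h and intermediate at 6 h; PDIA4, HSPA5, rorcb and DES are highest at 6 h; KPNA2 is near 0 at 3 h and overlaps the control at 6 h; metrnlb, fbxo2 and cldnb are below the control at 6 h.

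Across the series the 6 h libraries differed from those of 3 h in 145 genes, from those of 1 h in 7 (4 higher and 3 lower at 6 h), and the 12 h libraries differed from them in 13 (8 higher and 5 lower at 12 h), all by limma at an adjusted p under 0.05. Dropping a library moved the count against 3 h to 40 for 6 h replicate A, 42 for 6 h replicate B, 54 for 6 h replicate C, 43 for 3 h replicate A and 239 for 3 h replicate C. Lysosome and autophagy genes had 4 of 43 kept members lower than the control (9.3%, beside 2.96% of all genes) and 0 higher. That count was 2 without control replicate C, where CTSH, a lysosomal protease, had its highest value: 5.54, 2.86 and 6.99 FPKM at 6 h, against 15.8, 21.1 and 211 FPKM in the control (log2 difference -2.87 ± 0.92, limma adjusted p = 0.716). gabarapb, which coats autophagosomes, had 72.2, 128 and 140 FPKM at 6 h, against 241, 176 and 189 FPKM in the control (log2 difference -0.87 ± 0.35, limma adjusted p = 0.854). Ribosomal proteins (0 of 73 at an unadjusted p under 0.05) and proteasome subunits (0 of 43) had median log2 differences of 0.14 and -0.10.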

How the data were processed

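Per the labels' protocols and the submitters' processing notes, HiSeq 4000 read pairs were mapped by HISAT on GRCz11 (Ensembl release 106), and the authors made FPKM with tools that include StringTie and edgeR; no source used here gives their versions or filters. There are 32520 gene IDs in the deposited FPKM table. Of the columns, 15 were used; 3 further columns match no sample and were not used, and 1 column at 1 h could be tied to its group only. Symbols came from a table of gene names (29201 IDs; 3319 had none), many in the human style, and IDs with a common symbol had their FPKM added up, which joins more than 1 ID in 1280 of the kept genes. Whole reads could be recovered from the FPKM of all 20690 IDs above 0 in at least 2 libraries, within 0.0001 reads.

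log2(FPKM + 1) of the 13051 kept genes went into limma 3.58.1 (R 4.3.3; lmFit and contrasts.fit, then eBayes with a trend), all 15 libraries in 1 fit, two-sided, Benjamini-Hochberg over all kept genes, threshold 0.05. Log2 differences understate the change of low genes, and none is given against a group listed at 0, since a 0 can be a failed estimate. The fit was tested on simulated data. Named genes were the 15 higher and 15 lower with the smallest p among genes with separate libraries and gene-like symbols, and up to 4 members of each of 44 lists. Further members named, mostly of the chaperone, clock, immediate early and cell cycle lists, were chosen after their values were seen. The comparison, lists and tests were chosen with earlier results of these data known. Alternatives were another pseudocount, no filter, other scalings, array quality weights, fewer libraries, a replicate block, voom and the submitters' threshold of a 2-fold change at an unadjusted p of 0.05. Results for some genes that the rule names are not reported here.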

Additional observations from a re-analysis of the deposited data

Results flagged for a closer look

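Among the genes that the naming rule selects, those given here differed at 6 h from a neighbouring time by the test of the difference itself (limma, adjusted p under 0.05 over all kept genes; these comparisons share the 6 h libraries). Between 6 h and 3 h the log2 difference was 3.30 for PDIA4 and 2.46 for calr3b, which were higher at 6 h, and XXYLT1, listed at 0 at 3 h, had a limma adjusted p of 0.0168. Other genes that passed this test, such as KPNA2, SDF2L1 and FOS, are outside that rule and have their values above. Lower at 6 h than at 3 h were HMOX1 (-2.63), BHLHE40 (-2.82), NR1D2 (-3.43), DUSP1 (-3.95), FOSL1 (-3.99), MMP9 (-3.90), cldnb (-6.37), UCP1, an uncoupling protein of the mitochondrial membrane (-5.56), and TP53INP1, a target of p53 (-2.98). Between 12 h and 6 h the log2 difference was 2.61 for fbxo2, 2.90 for serinc2, 6.01 for and3, a structural protein of the fin fold, and 2.96 for col4a5, a basement membrane collagen, all higher at 12 h. It was -5.38 for tcap, -3.43 for arpp21, -2.65 for SOCS3 and -3.29 for HMOX1, lower at 12 h. Groups of 3 libraries are too small to test for a single library that stands apart.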

How the results depend on the processing

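The 0 genes called at 6 h against the control became 13 with array quality weights, 1 with voom on the recovered reads, 3 without the 12 h libraries, a fit chosen after seeing the data, and 699 by the submitters' threshold (320 higher and 379 lower). Leaving out each library of the 2 groups gave 0 to 0. The count at an unadjusted p under 0.05, 721, was 1198 with array quality weights and 496 to 652 with a library left out. The 145 genes called against 3 h were 285 with array quality weights, 69 without the filter, 7 with only the 6 libraries of 3 h and 6 h, and 40 to 239 with a library left out. Letters A to C did not pair the libraries: the correlations of same-letter deviations were -0.00144, 0.00611 and -0.0146. A replicate block gave 1 call against the control, tcap, and 154 against 3 h. The share of higher genes at an unadjusted p under 0.05 was 46.5%, 36.9% without control replicate A, 52.2% after quantile normalization and 41.3% after median ratio scaling. Over 450 refits of the 30 named genes no direction turned round, and 15 passed the adjusted threshold. These genes were chosen for separate groups, so leaving out a library could not turn a direction round. Of 660 refits of list medians 123 moved by more than the spread between the 6 h libraries. The causes were not tested. With 3 libraries a group, and recovered reads of 12486844 or more a library, genes near 0.1 FPKM rest on a few reads.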

Other observations

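Amino acid genes of the ATF4 pathway went both ways at an unadjusted p under 0.05. Of 24 kept members 2 were higher (8.33%, beside 2.57% of all genes) and 2 lower (8.33%, beside 2.96%). The count higher was 0 without 6 h replicate A or control replicate C. Over the whole list 10 of 24 differences were positive, beside 47.9% of all genes, with a median log2 difference of -0.29. The list summed to 381, 352 and 450 FPKM at 6 h, against 605, 607 and 586 FPKM in the control. Its mean relative level was also below every control library in each 6 h library (-0.16, -0.26 and -0.28, against 0.056, -0.11 and 0.058). PHGDH, the entry enzyme of serine synthesis, had 18.3, 5.15 and 8.33 FPKM at 6 h, against 4.23, 1.43 and 0 FPKM in the control (log2 difference 2.15 ± 0.80, limma adjusted p = 0.826). SLC3A2, the heavy chain of amino acid transporters, had 9.56, 6.47 and 15.8 FPKM at 6 h, against 43.8, 145 and 88.3 FPKM in the control (log2 difference -2.93 ± 0.87, limma adjusted p = 0.543). Both had separate groups.

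Uncoupling proteins, carriers that dissipate the mitochondrial proton gradient, were picked out after their values were seen, and each of UCP1, UCP2 and ucp3 fell at 6 h relative to 3 h. UCP2 had 57, 176 and 81.3 FPKM at 6 h, against 1223, 834 and 551 FPKM at 3 h (log2 difference -3.13, limma adjusted p = 0.0107), and ucp3 had 21.7, 28 and 8.43 FPKM at 6 h, against 355, 215 and 451 FPKM at 3 h (-4.15, adjusted p = 0.00913). The control had 45.9, 115 and 100 FPKM of UCP2 and 6.86, 31.3 and 43.9 FPKM of ucp3, which overlap the 6 h values. The fin fold proteins and1 and and2 were also lower at 6 h than at 3 h, by log2 differences of -4.20 and -3.91, and higher at 12 h than at 6 h, by 5.42 and 4.39.

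Collagens had 0 of 41 kept members higher and 1 lower (2.44%) at an unadjusted p under 0.05, beside 2.96% of all genes, and 8 with separate groups and 6 h below, where 6.56% of all genes had that; without 6 h replicate B the count lower was 5. The lower one, col4a5, had 3.39, 5.8 and 1.21 FPKM at 6 h, against 12.3, 12.3 and 8.28 FPKM in the control (log2 difference -1.55 ± 0.53, limma adjusted p = 0.813).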
